A study of Drosophila melanogaster with 12 samples.

Results

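Saft, the product of CG11247, occupied 304 wide sites on the large autosomal arms of Drosophila melanogaster that carried no peak of Phaser, the product of CG7372. Peaks of the 4 Saft lists that overlapped by 1 bp or more were merged on arms 2L, 2R, 3L and 3R, which gave 1756 regions. Of these, 670 held a peak in all 4 lists, 463 of the 670 overlapped no peak of either Phaser list, and 304 of the 463 had a single peak of 1000 bp or more in at least 1 Saft list. The 304 regions are called wide sites here, and the other 159 of the 463, which met every condition but the width, are called narrow sites. The wide sites were thus chosen by presence in the lists, absence of Phaser and peak width, and every value taken from the Saft lists is given as a description. For scale, all 6 lists merged over all sequences gave 6795 regions.

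Chromatin was taken from S2 cells, a cultured line of embryonic origin, that expressed OsTir1, the plant auxin receptor that lets auxin trigger breakdown of proteins carrying an auxin-inducible degron (AID). Saft was mapped in clones 9C and 4H (genotype OsTir1, Saft_FLAG-AID) and Phaser in clone 8D (genotype OsTir1, Phaser_FLAG-AID), each with 2 biological replicates, by ChIP-seq with the anti-FLAG M2 antibody. The endogenous gene was tagged homozygously, no protein was depleted, and each line is 1 clone. The 6 ChIP libraries each gave a peak list, and the lists of the Saft libraries held 1389 and 1515 peaks in clone 9C and 1212 and 1265 peaks in clone 4H. Read depth is unknown. No list from an untagged line was used here.

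The labels name both proteins as transcription factors, and the series title places them in a study of silencers, DNA elements that lower transcription from a promoter. Silencers work by recruiting sequence-specific proteins that in turn bring corepressors or chromatin modifiers. In ChIP-seq, a peak is the stretch over which reads from the precipitated DNA exceed the background of the peak caller, and the summit is the base with the most reads. Because a stronger signal stays above that limit farther from its summit, called width is not the length of the bound DNA. Fragments after sonication were 200 to 1000 bp long.

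Replicate 1 of clone 4H gave narrower peaks than the other 3 Saft libraries, by their medians, at wide and at narrow sites alike. Over all peaks of a list this did not hold. Its median width there was 336 bp, against 328 and 322 bp in clone 9C and 350 bp in replicate 2 of clone 4H. Among 117 regions that were found in a single Saft list and lay within 1000 bp of a wide site, 16 came from replicate 1 and 45 from replicate 2 of clone 9C, 56 from replicate 2 of clone 4H, and 0 from replicate 1 of clone 4H. Beside narrow sites there were 23 such regions, and that library likewise gave 0 of them. Left out of the rule, this library still gave 304 wide sites.

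Most wide sites were wide in every Saft library. Their median peak width was 1371 and 1435 bp in replicates 1 and 2 of clone 9C, and 1096.5 and 1450.5 bp in replicates 1 and 2 of clone 4H. At narrow sites the medians in the same libraries were 498, 549, 380 and 529 bp. A width of 1000 bp or more was seen in all 4 lists at 183 wide sites (60.2%), in 3 lists at 67, in 2 lists at 22 and in a single list at 32. By library, 272 and 276 wide sites reached that width in clone 9C, and 187 and 274 in clone 4H. Averaged over the 4 libraries, the median width was 1338 ± 165 bp at wide sites and 489 ± 75.6 bp at narrow sites (SD, n = 4 libraries), a separation that the width rule itself made.

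**Figure D1:**
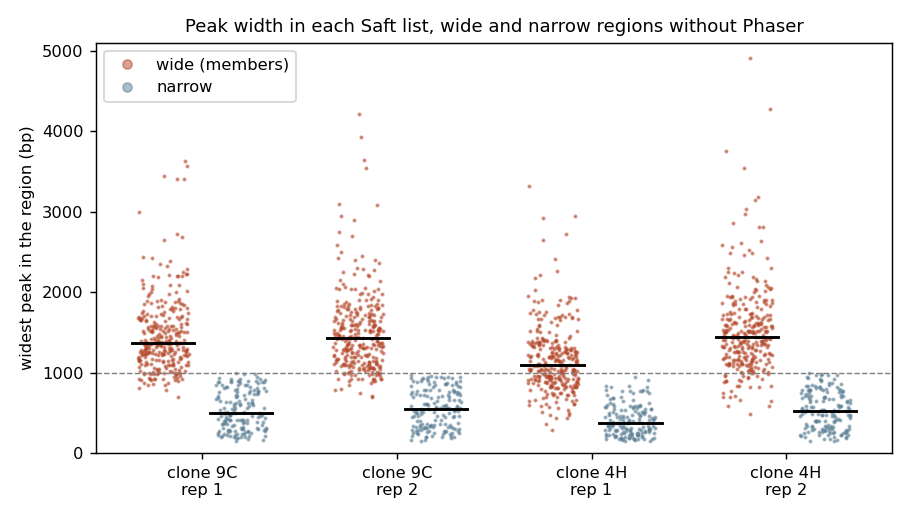
Width of the widest peak (bp) in each of the 4 Saft libraries at 304 wide sites (left of each pair) and 159 narrow sites (right). Points are regions, black bars are medians and the dashed line is the 1000 bp limit; the wide sites of clone 4H replicate 1 have a median of 1096.5 bp, the lowest of the 4 libraries.

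Most sites that reached 1000 bp in 1 library also did so in the others. The 463 sites had a peak in every list by the rule, so these shares are a description and no support for it. Among the 463 sites without Phaser, the 272 that reached 1000 bp in replicate 1 of clone 9C did so in replicate 2 of that clone at 93.8%, and in replicates 1 and 2 of clone 4H at 68.0% and 93.4%. Among all 463 sites these shares were 59.6%, 40.4% and 59.2%. The 187 sites that reached 1000 bp in replicate 1 of clone 4H did so at 98.9% in each replicate of clone 9C and at 99.5% in replicate 2 of clone 4H. Replicate 1 of clone 4H had the narrowest peaks by median at wide and at narrow sites. Nearly all sites of the subset that it picked were also wide in the other libraries.

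Ranked by the widest peak, the value that the rule used, the lowest wide site was 2L, 2464218 to 2465287, which had peaks of 996 and 969 bp in clone 9C and 933 and 1000 bp in clone 4H, with a mean fold enrichment of 13.6 ± 1.56 (SD, n = 4). The next were 3R, 2074173 to 2075180 (widest peak 1002 bp, 12.0-fold ± 2.64) and 3L, 4692039 to 4693072 (1004 bp, 11.5-fold ± 3.01). Just under the limit lay 3R, 12320247 to 12321293 (999 bp, 12.4-fold ± 2.35), 3R, 17489847 to 17490905 (997 bp, 11.8-fold ± 0.681) and 2R, 3785633 to 3786624 (992 bp, 11.6-fold ± 2.18). Folds of the sites on either side of the limit overlapped.

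Merged over the 4 lists, a wide site spanned a median of 1636.5 bp (1008 to 5285 bp), against 632 bp (205 to 1314 bp) for a narrow site. The stretch that all 4 lists had in common was 1114 bp at the median wide site (290 to 3752 bp) and 341 bp at the median narrow site (86 to 891 bp). In all, the wide sites covered 533 kb, of which 362 kb (68.0%) lay under a peak in every list, and the narrow sites covered 102.8 kb, of which 60.9 kb (59.2%) did. No site lacked such a common stretch. The rule split the classes on width, so the differences in these lengths are a description.

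The summit stood near the same base in every library. The 4 summits of a wide site lay within a median of 17 bp of each other (quartiles 4 and 33 bp), and within 50 bp at 255 of the 304 (83.9%). At narrow sites the median distance was 26 bp, and 105 of 159 (66.0%) lay within 50 bp. Only 5 wide sites had summits more than 500 bp apart. Among these were 2 of the widest, 3R, 20007136 to 20011096 (2449 bp between the outer summits) and 2R, 16517545 to 16522163 (2283 bp), where the strongest point moved between libraries within the same domain.

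Peaks at wide sites extended to both sides of the summit. In clone 9C the median shorter flank was 570 and 584 bp and the median longer flank 813.5 and 831 bp, and in clone 4H the shorter flank was 455 and 588 bp and the longer 633 and 834 bp. The summit lay a median of 68.5 to 102 bp from the middle of the peak in the 4 libraries, or 6.93% to 7.16% of its width. A longer flank of at least 2 times the shorter was found at 32 and 44 wide sites in clone 9C and at 41 and 46 in clone 4H, and only 6 sites showed it on the same side in all 4 lists. At 128 sites the longer flank was on the same side in all lists, to the right at 62 and to the left at 66.

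**Figure D2:**
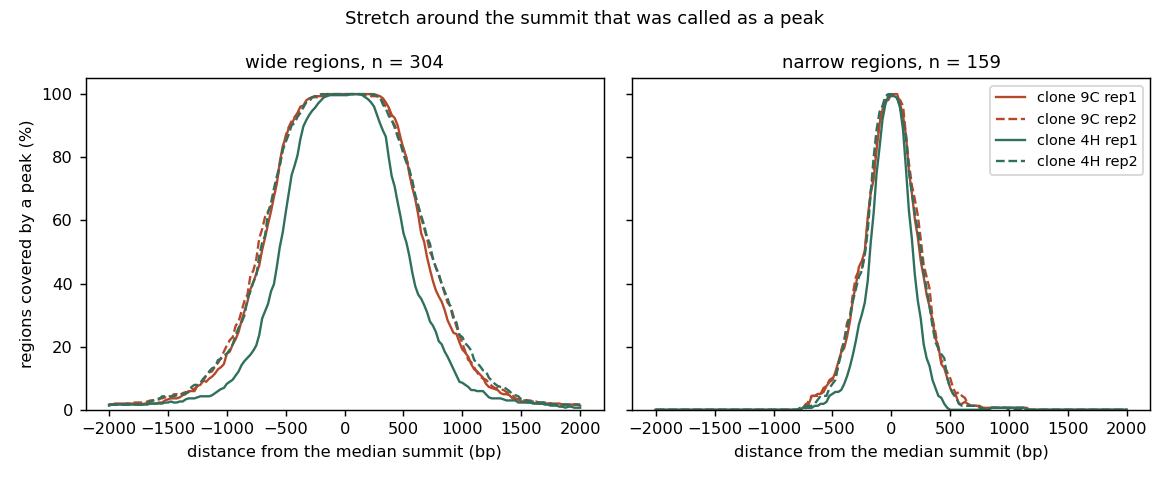
Percent of wide sites (left, n = 304) and narrow sites (right, n = 159) that lay under a peak at each distance (bp) from the median summit of the 4 lists, with 1 line for each library. At 500 bp left of the summit 86.2% and 86.8% of wide sites were covered in clone 9C and 62.5% and 84.9% in clone 4H.

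At 1000 bp to the right of the summit, 19.1% and 21.1% of wide sites were still under a peak in clone 9C, and 8.55% and 23.0% in clone 4H. The corresponding share of narrow sites was at most 0.629% in any library. Narrow sites hold no peak of 1000 bp or more by the rule, so this share was low in advance. The curve of clone 4H replicate 1 lay inside the other 3 on both sides.

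Most wide sites were 1 continuous peak. At 168 of 304 (55.3%) every list held a single peak, and at 11 every list held more than 1. Further peaks beside the strongest numbered 72 and 77 in clone 9C and 67 and 58 in clone 4H, and they were weak, with median folds of 2.82 and 2.84 in clone 9C and 2.84 and 2.88 in clone 4H. They lay a median of 84.5 to 109 bp from the edge of the main peak and were 236 to 279.5 bp wide. Very few approached the main peak: 3 and 1 in clone 9C and 5 and 0 in clone 4H reached 80% of its fold. Over the 4 lists the highest number was 10 peaks, at 2R, 4898698 to 4902122 and at 3R, 13436660 to 13438992, while 7 sites held 9 and 12 held 8. By peaks in a single list, the first was 2R, 16502684 to 16505829, with 4 peaks in replicate 1 of clone 4H.

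By −log10 q, most of the strongest autosomal peaks of each Saft list lay in wide sites. The authors' fold enrichment, which divides the ChIP pileup by the caller's background on a linear scale, had medians of 11.4 and 10.2 in clone 9C and 10.7 and 11.8 in clone 4H. At narrow sites the medians were 6.66 and 5.91 in clone 9C and 5.24 and 6.51 in clone 4H. The single values overlapped widely, with 3.32 to 18.5 over all libraries at wide sites and 1.92 to 17.4 at narrow sites. Of the 100 autosomal peaks with the highest −log10 q in a list, 88 and 90 in clone 9C and 94 and 91 in clone 4H lay in wide sites, and 9, 6, 4 and 6 lay in narrow sites. On these arms the lists held 1223 and 1336 peaks in clone 9C and 1046 and 1118 in clone 4H. Of these, 304 in each list were the strongest peaks of wide sites, besides the further peaks given above. Called width can rise with signal, so the width rule itself may have favoured strong peaks. That was not tested, and the counts are a description.

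The number of reads at a summit and the background beneath it were recovered from fold and −log10 p. The recovery assumed the caller's formula, set steps of background and 1 scaling factor per library. These recovered ChIP reads had medians of 264 and 265 at wide sites in clone 9C and of 256 and 260.5 in clone 4H. At narrow sites the medians were 150 and 160 in clone 9C and 115 and 134 in clone 4H. A count of 250 or more was reached by 77.3% and 79.3% of wide sites in clone 9C and by 60.9% and 66.8% in clone 4H, against 13.8%, 14.5%, 7.55% and 10.1% of narrow sites in the same order of libraries. The highest count of any Saft list was 287 to 290, so most wide sites sat in a narrow band under that top. If a peak caller keeps 1 read per position and strand and extends it to the 150 bp that the background steps show, no base can hold more than 300 reads, and the setting for duplicate reads is not given in the sources used here.

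**Figure D3:**
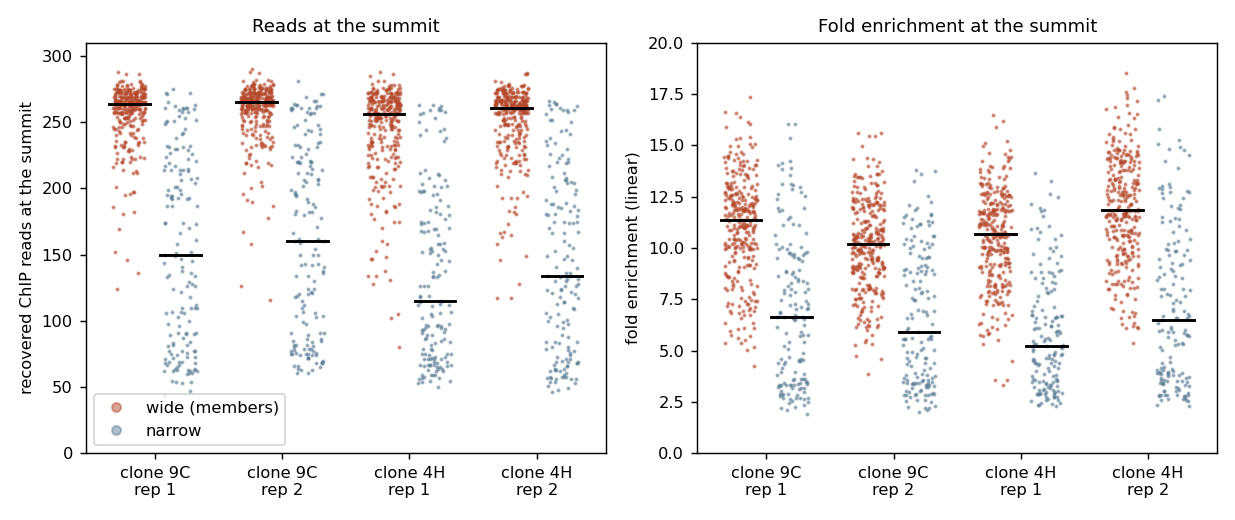
Recovered ChIP reads at the summit (left panel) and linear fold enrichment (right panel) in each Saft library, wide sites to the left of each pair and narrow sites to the right. Points are regions and black bars medians; wide sites crowd under the top of the read scale, with medians of 256 to 265, and spread out on the fold scale.

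Background differed little between the classes. Its median at the summit, in the scaled reads of the peak caller, was 8.33 and 9 at wide sites in clone 9C and 9 and 8 in clone 4H, and 8 and 8.81 at narrow sites in clone 9C and 8.55 and 8 in clone 4H. The SD over the 4 lists was a median of 1.44% of the mean for reads, 16.2% for background and 15.5% for fold. At narrow sites these were 11.3%, 14.5% and 14.9%. Reads at wide sites crowd under the top of each list, and whether that narrows their spread was not tested. The small spread of their reads is thus no measure of stability.

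The order of the wide sites was more alike between libraries by reads than by fold. Over the 304 sites, Spearman's rho between libraries was 0.879 to 0.976 for reads, 0.703 to 0.780 for width and 0.389 to 0.531 for fold. Over the 159 narrow sites rho for fold was 0.858 to 0.918. These are correlations over sites that share libraries and background windows, and are given as descriptions. Among wide sites, mean fold had a rho of −0.790 with mean background and 0.279 with mean reads; since fold is computed from those values, the relation is partly built in. Among narrow sites fold followed reads (rho = 0.909).

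Mean width and mean fold were weakly related over the wide sites. The rho of mean width was 0.0989 with mean fold and 0.353 with mean reads, while at narrow sites it was 0.840 with fold and 0.831 with reads. The classes were split on width, and wide sites lie under the top of the read scale, so their ranges are cut differently and the rhos of the classes cannot be compared. In 4 equal groups of 76 wide sites from the least to the most wide, the median of mean fold was 10.9, 10.7, 11.3 and 11.1. The median of mean reads was 249, 260.4, 263 and 265. The widest group (mean width 1636 to 3589.5 bp) differed in make-up, since 67.1% of its sites held more than 4 peaks over the 4 lists, against 36.8%, 35.5% and 39.5% in the other groups.

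The widest site of each arm shows what these domains looked like. On 2L, 7005987 to 7011271 had widths of 3566 and 2951 bp in clone 9C and 2725 and 4904 bp in clone 4H, the last being the widest Saft peak among the wide sites. Its folds were 11.7 and 10.2 in clone 9C and 7.63 and 12.6 in clone 4H, from 247 and 251 reads and 227 and 236 reads. The low fold in 1 library of clone 4H came with a read count near that of its partner.

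On 2R, 16517545 to 16522163 had widths of 2392 and 4212 bp in clone 9C and 2218 and 4276 bp in clone 4H. Replicate 2 was the wider in both clones. Its reads were 272 and 275 in clone 9C and 270 and 269 in clone 4H, and its mean fold was 12.9 ± 0.921 (SD, n = 4).

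On 3L, 4305865 to 4309792 had widths of 3413 and 3928 bp in clone 9C and 2926 and 3539 bp in clone 4H. Reads were 261 in each replicate of clone 9C and 259 and 260 in clone 4H. On 3R, 20007136 to 20011096 had widths of 3637 and 3644 bp in clone 9C and 3318 and 3759 bp in clone 4H, the highest mean width of any site (3589.5 ± 189 bp). Also on 3R, 6003281 to 6006914 had widths of 3444 and 3544 bp in clone 9C and 2943 and 3031 bp in clone 4H, and its 4 summits lay within 2 bp. The Phaser peak nearest to any of these 5 sites lay 18647 bp from the one on 3L.

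The highest folds fell on other sites. At 3R, 27340057 to 27341529, fold was 17.35 and 13.2 in clone 9C and 14.8 and 18.5 in clone 4H, but widths were 792 and 794 bp in clone 9C and 613 and 1409 bp in clone 4H. It was a wide site through 1 list alone. Its reads were 264 and 261 in clone 9C and 239 and 261 in clone 4H. Its background was low, at 5.28 and 7 scaled reads in clone 9C and 6.06 and 5.19 in clone 4H. The medians over wide sites were 8.33 and 9 in clone 9C and 9 and 8 in clone 4H. The next were 2L, 4800181 to 4802144 (15.3-fold ± 2.13), 2L, 3486316 to 3488029 (15.2-fold ± 1.39), 2L, 4354450 to 4356259 (15.1-fold ± 1.5) and 3R, 27383813 to 27385858 (14.8-fold ± 1.26; SD, n = 4 for each). The first and last of these 5 lay 42283 bp apart.

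Clones 9C and 4H were compared at the wide sites. The rule required a peak in every list of both clones, so sites present in only 1 clone could not be among them. Width was also the value that the rule used. The mean of the median widths was 1403 ± 45.3 bp for clone 9C and 1273.5 ± 250.3 bp for clone 4H (SD over 2 libraries each). The ratio of 1.11 had p = 1 in an exact two-sided permutation over libraries (adjusted p = 1 over 3 ratios). Without replicate 1 of clone 4H the ratio was 0.967, so its direction rested on that library. The median fold was 10.8 ± 0.833 in clone 9C and 11.3 ± 0.827 in clone 4H. Their ratio, 0.958, had p = 0.667 in the same exact permutation (adjusted p = 1). The ratio became 1.01 when replicate 2 of clone 4H was left out and 1.00 when replicate 2 of clone 9C was. The median −log10 q was 69.1 ± 4.5 in clone 9C and 75.1 ± 5.38 in clone 4H. Their ratio, 0.921, had p = 0.667 by exact permutation (adjusted p = 1). With 2 libraries in each clone p cannot go below 0.33, so no difference could pass 0.05.

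Recovered reads are counts before the caller's scaling, whereas fold uses the scaled pileup. The scaling factors were 0.409 and 0.402 in clone 9C and 0.433 and 0.435 in clone 4H. The directions of reads and fold between clones therefore cannot be set against each other. Median recovered reads were 264.5 ± 0.707 in clone 9C and 258 ± 3.18 in clone 4H. Their ratio, 1.02, had p = 0.33 by exact permutation, the smallest the design allows. Over all 670 autosomal regions found in the 4 lists the same ratio was 1.16. Both 9C libraries exceeded both 4H libraries in reads at 182 wide sites (59.9%), where 59.6% of the 670 regions did so, and stood below them at 1 wide site (0.329%, against 1.64%). The share at wide sites was thus close to that of all regions.

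Fold and width were read in the same manner. In fold, both 9C libraries stood above both 4H libraries at 35 wide sites (11.5%, against 17.2% of the 670 regions) and below them at 74 (24.3%, against 17.3%). In width they stood above at 88 wide sites (28.9%, against 31.9%) and below at 7 (2.30%, against 4.93%). These counts compare lists and not the spread between cultures, and no test was made of a wide site count against its background.

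**Figure D4:**
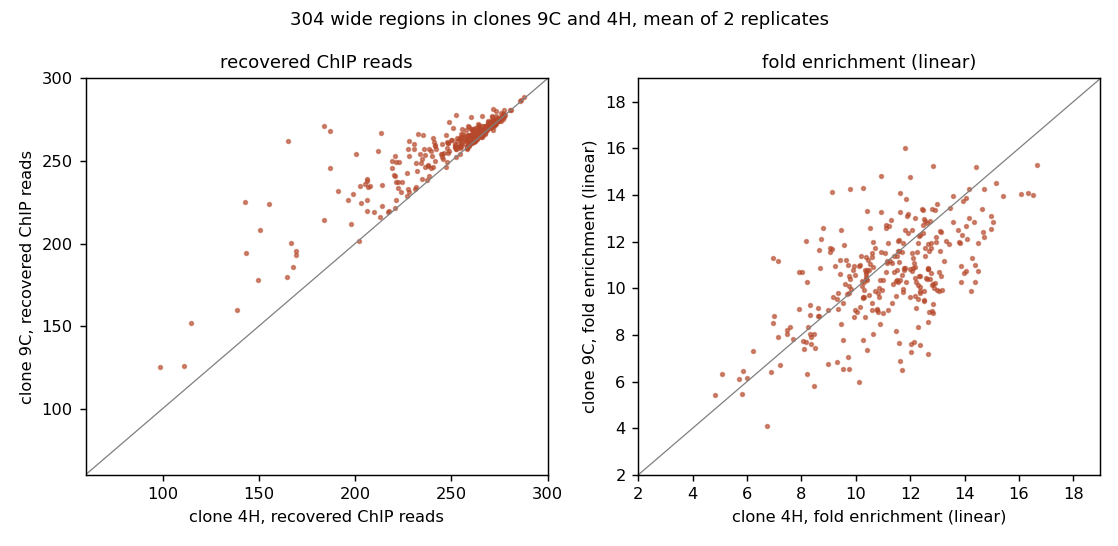
Mean of 2 replicates at each of the 304 wide sites in clone 9C (y axis) and clone 4H (x axis), for recovered ChIP reads (left) and linear fold enrichment (right), with the line of equal values. Reads hug the line above 250 and lie above it below that, with clone 9C higher at 262 sites (86.2%, against 87.2% of all 670 regions), while folds scatter on both sides. Reads are counts before the caller's scaling, so the clones are not on a common scale.

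Clone 9C exceeded clone 4H by 20% or more in mean reads at 15 wide sites (4.93%), against 46 narrow sites (28.9%) and 20.3% of the 670 regions. These reads are counts before the caller's scaling and depth is unknown, so the clones are not on a common scale. At the 15 wide sites the medians were 232 reads in clone 9C and 166.5 in clone 4H. The reverse was found at 0 of 304 wide sites, 2 narrow sites and 0.597% of the 670 regions. The highest count in any Saft list was 287 to 290, and most wide sites lay near that top. Whether that top limited an excess of 20% at wide sites was not tested, so these shares cannot be compared between classes. The largest ratio of mean reads, 1.59, was at 2R, 18913597 to 18914816, which had 264 and 260 reads in clone 9C and 147 and 183 in clone 4H. Its widths were 987 and 1220 bp in clone 9C and 290 and 486 bp in clone 4H. The site was picked for its extreme ratio. Both 9C libraries exceeded both 4H libraries in reads at 59.6% of the 670 regions, and in width at 31.9%. By fold ratio of 9C to 4H the highest were 3L, 1844378 to 1845607 (1.63), 2R, 3177038 to 3178540 (1.56) and 2R, 18913597 to 18914816 (1.55).

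At the other end were 3L, 3252527 to 3254745 (0.554), 3L, 3101950 to 3104225 (0.567) and 3L, 4271977 to 4273697 (0.593), all on 3L. The first of them had folds of 6.96 and 6.02 in clone 9C and 11.1 and 12.3 in clone 4H, from 281 and 282 reads in clone 9C and 269 and 274 in clone 4H. These reads are counts before scaling, so they are not on the scale of the fold between clones. The recovered background was higher in clone 9C, at 15.7 and 18 scaled reads, against 9.55 and 8.79 in clone 4H.

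Wide Saft regions of all 4 lists rarely overlapped a Phaser peak. Of 316 wide regions in all 4 lists, 12 (3.80%) overlapped a Phaser peak, whereas 195 of 354 narrow regions (55.1%) did. These shares are over all 670 regions, with or without Phaser, split by width alone, and are given as a description without a test. Absence of Phaser is part of the rule for the 304, but the rule set no distance to Phaser beyond that. Distance to the nearest Phaser peak was alike in both classes. Its median was 13.6 kb at wide sites (13623.5 bp, quartiles 5165 and 25610.5 bp). At narrow sites it was 13.2 kb (13198 bp, quartiles 5305 and 29919 bp).

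A Phaser peak lay within 1000 bp of 13 wide sites (4.28%) and 7 narrow sites (4.40%). Within 10000 bp the numbers were 129 (42.4%) and 67 (42.1%). No test was made over regions. Wide sites with Phaser within 5000 bp (n = 74) had median folds of 11.1 and 10.0 in clone 9C and 10.9 and 11.7 in clone 4H. Those more than 20000 bp from Phaser (n = 107) had 11.7 and 10.3 in clone 9C and 10.6 and 11.8 in clone 4H, and their median widths of 1379, 1455, 1133 and 1516 bp stood beside 1367, 1476, 1128 and 1483.5 bp for the near ones in the same order of libraries.

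The wide sites nearest to Phaser were 3L, 1821760 to 1824759 (265 bp away), 3L, 3101950 to 3104225 (288 bp) and 2R, 20715310 to 20716889 (443 bp). The first had folds of 12.1 and 6.56 in clone 9C and 11.9 and 13.8 in clone 4H with 272 to 275 reads in every library. The farthest were all on 3L, at 21636627 to 21638702 (141985 bp away), 21712209 to 21713292 (122180 bp) and 21720146 to 21721874 (113598 bp). Their mean folds were 12.8 ± 1.47, 8.25 ± 1.85 and 10.4 ± 2.36 (SD, n = 4).

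**Figure D5:**
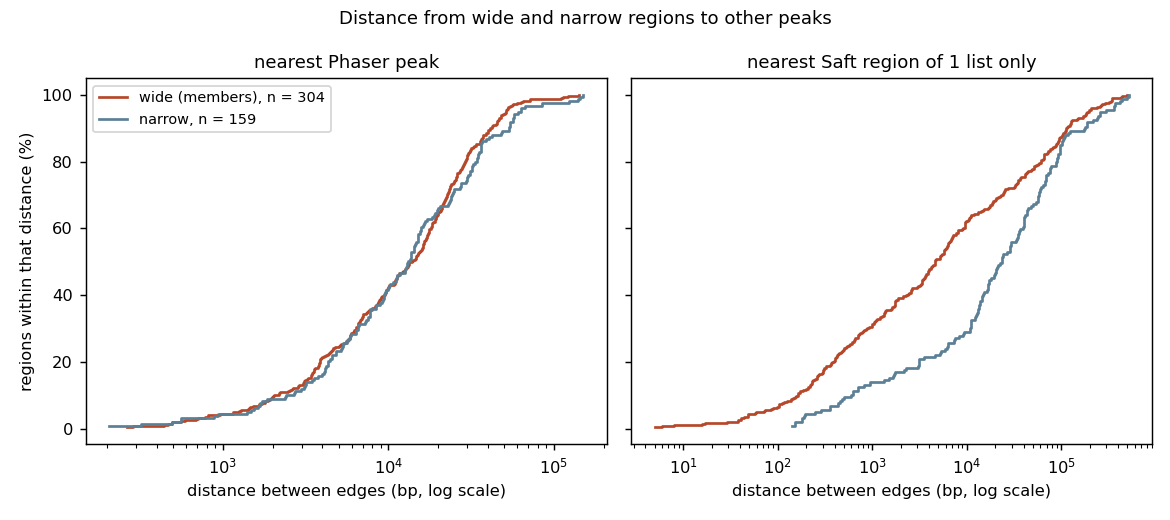
Percent of wide sites (n = 304) and narrow sites (n = 159) within a given edge-to-edge distance (bp, log axis) of the nearest Phaser peak (left) and of the nearest Saft region found in 1 list only (right). The Phaser curves nearly coincide, with medians of 13623.5 and 13198 bp, while 31.2% of wide and 13.8% of narrow sites had a single-list Saft region within 1000 bp.

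Weak Saft regions were more often found beside wide sites than beside narrow ones. A Saft region present in 1 list only lay within 1000 bp of 95 wide sites (31.2%) and 22 narrow sites (13.8%), at median distances of 4614 bp and 23452 bp. The 117 single-list regions within 1000 bp of a wide site made up 18.7% of the 627 on these arms, with a median fold of 2.72 and a median width of 186 bp. The other 493, which were near neither class, had a median fold of 2.82 and the same median width. As given above, replicate 1 of clone 4H supplied 0 of the 117 and also 0 of the 23 beside narrow sites, although it supplied 115 of the 493. The nearest merged Saft region of any kind was a median of 621 bp from wide sites and 2859 bp from narrow sites. One lay within 1000 bp of 167 wide sites (54.9%) and 57 narrow sites (35.8%).

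For Saft regions found in all 4 lists the shares were closer. The nearest one was within 5000 bp of 151 wide sites (49.7%) and 75 narrow sites (47.2%). Another wide site was within 5000 bp of 111 wide sites (36.5%) and 47 narrow sites (29.6%).

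Wide sites linked over gaps of at most 5000 bp formed 46 runs with 111 members, and the other 193 stood alone. There were 31 runs of 2, 11 of 3 and 4 of 4. The runs of 4, named after their values were seen, lay at 3L, 5608703 to 5626811, at 3R, 23019625 to 23034830, at 3L, 20599638 to 20614274 and at 3R, 19286562 to 19298196. In the last, mean folds were 11.6 ± 0.912, 12.8 ± 1.7, 12.9 ± 1.67 and 13.8 ± 1.34, with gaps of 1041 bp between the first and second sites and 993 bp between the last pair. In the first, mean folds were 9.23 ± 0.525, 7.93 ± 0.434, 9.96 ± 1.06 and 9.98 ± 1.78 (SD, n = 4), all below 11.0, the mean of the 4 library medians over wide sites, although its first site held 286 ± 0.816 reads, near the top of the lists.

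The most isolated wide sites had folds near those of the rest. The 3 farthest from any other Saft region were 3R, 13250839 to 13252479 (184180 bp away), 3L, 9869740 to 9871448 (182042 bp) and 2R, 14671277 to 14674257 (120431 bp). The first had widths of 1519 and 1579 bp in clone 9C and 1203 and 1472 bp in clone 4H, and a mean fold of 11.3 ± 2.4. The other two had mean folds of 10.5 ± 0.631 and 11.9 ± 1.21 (SD, n = 4).

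All large autosomal arms held wide sites. There were 102 on 3R, 80 on 3L, 70 on 2R and 52 on 2L, or 3.68, 3.39, 3.35 and 2.33 per Mb up to the last peak of any list. They made up 71.8% of the sites without Phaser on 3R, 63.5% on 3L, 67.3% on 2R and 57.1% on 2L. Median mean widths were 1388.5 bp on 3R, 1297 bp on 3L, 1285 bp on 2R and 1267 bp on 2L, and median mean folds 11.3, 10.4, 11.1 and 11.4 in the same order. Of 96 stretches of 1 Mb, 76 held a wide site, and the fullest, 3L from 3000001 to 4000000, held 12. Positions are in dm3, and neither its sequence nor its gene annotation was used here, so the sites are named by position only.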

How the data were processed

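Binding of Saft (2 clones, 4 libraries) and of Phaser (1 clone, 2 libraries) was read from the peak lists that the authors deposited, 1 per ChIP library and not pooled. The 6 input libraries had no list of their own. Cells were fixed in 1% formaldehyde for 10 min, per the labels' protocols. MACS2 2.1.2.1, Bowtie 1.2.2, Trim Galore 0.6.2 and bedtools 2.27.1, with build dm3, are listed in the submitters' processing notes, which give no settings. In the deposited lists fold enrichment is a linear ratio at the summit, and the −log10 p and q columns were likewise written by the authors' caller. The deposited score was not used, and peak starts, ends and summit offsets are in bp. Samples were grouped by factor and clone from their titles.

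Width is the widest peak of a region in a list, and fold, −log10 q and summit are those of its strongest peak by −log10 q. Summit reads were recovered by solving fold, to which the caller adds 1 above and below, and the Poisson −log10 p for pileup and background, then dividing by 1 factor per library. All peaks of each list came out whole (100%, tolerance 0.03 reads). The factor, and the solution where a peak had several, were chosen to give whole reads, so this share partly reflects that choice. Recovery and merging were tested on simulated data. These reads describe summits, not depth.

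Members, lists and comparisons were chosen with earlier results of these data known. Clone ratios used exact permutation over libraries, and Benjamini-Hochberg over 3. Named regions were the widest (overall and per arm), those of highest mean fold, those beside the width limit, and those extreme in clone ratio, distance or number of peaks. Replicates are described as biological in the series' text. No dm3 sequence or annotation was used, so no sequence is shown. Python 3.11.15 was used, with pandas 2.3.3, scipy 1.17.1 and numpy 2.4.6.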

Additional observations from a re-analysis of the deposited data

How the results depend on the processing

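Of 133 recomputed values, 125 kept their direction or stayed within the spread between libraries. When only peaks with −log10 q of at least 10 entered, the median distance to the nearest Phaser peak was 22757 bp and to the nearest other Saft region 5091 bp, from fewer peaks by construction. That last distance was 621 bp in the report, 1964 bp from summit to summit and 1518 bp with Saft peaks within 200 bp merged, where the SD between libraries was 1256 bp. Sites with 1 peak in every list, an alternative chosen after seeing the data, numbered 168. Leaving out each replicate in turn moved the clone ratio of width between 0.967 and 1.28, that of fold between 0.908 and 1.01, and the Phaser distance between 13413 and 16138 bp. The number of wide sites then stayed between 293 and 309. Width limits of 800 and 1200 bp gave 351 and 261. Replicate numbers are shared by the clones, but no label ties same-numbered libraries to a day or batch, and their deviations over regions had r = -0.00203 in fold, 0.0202 in width and -0.25 in reads, so they were not treated as pairs. With a replicate block, the clone ratios of width (1.11), fold (0.958) and −log10 q (0.921) gave p = 1 in the exact permutation; for reads (1.02) it gave p = 0.5. The block changed no call, and with crossed numbers, chosen after seeing the data, reads also gave 0 calls. The tests cannot pass 0.05 at this size and say nothing about stability. Unknown depth limits every comparison between libraries.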

Other observations

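The same rule without the limit to the large autosomal arms found 35 further wide Saft regions without Phaser on the X, of 118 present in all 4 lists there. On the heterochromatic scaffolds 1 of 15 merged Saft regions was in all 4 lists, and it was not wide. On chromosome 4, 0 of 4 were in all lists.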
